A study of Mus musculus with 3 samples.

Results

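Of the 56748 genes in the count table, 10 were followed here, chosen by name as the tissue inhibitors of metalloproteinases (Timp1, Timp2, Timp3 and Timp4), the matrix metalloproteinases Mmp2, Mmp14 and Mmp15, the ADAM sheddases Adam10 and Adam17, and the ADAMTS protease Adamts1. All 10 were found in the table. They were measured by RNAseq in adult mouse ventricular cardiomyocytes (ACMs), which beat in the intact ventricle and were kept here in culture, to ask which transcripts change when the cells are given cytokines that signal through gp130. The data comprised 3 libraries, 1 per condition, each made from pooled RNA, so that no difference has a replicate check and every ratio below compares libraries.

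All cells came from WT mice aged 8 to 10 weeks, were plated on laminin with serum, and were then held without serum in M199 medium with 0.1% BSA, insulin-transferrin-selenium, lipid and 10 mM BDM, a blocker of contraction. The groups were vehicle (0.1% BSA), human IL-6 at 10 ng/mL and mouse oncostatin-M (OSM) at 10 ng/mL, and all cells were harvested after 16 h. How many animals contributed to each pool is not stated in the labels.

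TIMPs are small secreted proteins that bind the zinc-containing active site of metalloproteinases, and in the heart the balance between them and their targets shapes the collagen network around the myocytes. MMP2 is a secreted gelatinase, MMP14 and MMP15 are anchored in the membrane, and MMP14 together with TIMP2 activates the MMP2 precursor at the cell surface. ADAM10 and ADAM17 cut growth factors, cytokine receptors and adhesion proteins from the cell surface and are inhibited by TIMPs, TIMP3 above all for ADAM17, while ADAMTS1 is a secreted protease that cleaves the proteoglycans versican and aggrecan.

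In the OSM library the inhibitor Timp1 stood above the other genes of the set by more than an order of magnitude, and it was not raised in the IL-6 library. Adamts1 was the other gene whose whole counting interval lay beyond 2-fold with OSM against vehicle, narrowly so, while Mmp14 and Mmp2 had larger ratios from few counts. The summed level of the 6 proteases was almost the same in the 3 libraries, so that the summed TIMP level went from below that of the proteases with vehicle and IL-6 to well above it with OSM. Timp2 and Mmp15 were lower with OSM beyond counting error but by less than 2-fold, and the sheddases Adam10 and Adam17 hardly differed between libraries.

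The promoters of Timp1 and Adamts1 are shown, since these were the genes called with OSM against both other libraries. Of the 10 genes, 9 matched a promoter window in RefSeq (a table on GRCm38.p6, with none for Mmp2), and each window had 1 exact match in GRCm39, whose coordinates are given. Only the bases upstream of the first annotated exon are printed, 161 for Timp1 at chrX:20736155-20736315 on the plus strand and 242 for Adamts1 at chr16:85600010-85600251 on the minus strand, 5′ to 3′, with GC boxes and the TATA box in capitals.
Timp1: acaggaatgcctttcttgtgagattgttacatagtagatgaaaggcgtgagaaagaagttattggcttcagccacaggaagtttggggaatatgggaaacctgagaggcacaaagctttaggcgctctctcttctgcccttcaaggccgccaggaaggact
Adamts1: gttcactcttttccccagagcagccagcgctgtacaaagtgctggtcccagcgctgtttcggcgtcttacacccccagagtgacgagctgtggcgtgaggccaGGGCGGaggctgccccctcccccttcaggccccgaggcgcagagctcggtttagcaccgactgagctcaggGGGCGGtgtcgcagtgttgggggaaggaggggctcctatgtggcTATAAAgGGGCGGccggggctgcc

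The 250 bases before each RefSeq start were searched on both strands for 5 motifs. The STAT motif TTCNNNGAA occurs in 7.02% of the 32851 RefSeq windows of this length, the AP-1 motif TGANTCA in 6.75% and the C/EBP motif TTGCNNAA in 9.56%. None of the 9 windows held any of these 3 letter patterns, which says only that the letters are not in this stretch. The GC box GGGCGG, present in 32.7% of all windows, was in 8 of the 9, all but Timp4. The Timp1 window had 1, inside its annotated exons and so outside the printed stretch, and the Adamts1 window had 3. The TATA box TATAAA, present in 12.4% of all windows and searched for after the sequences had been seen, was in the Adamts1 window alone, from 32 to 27 bases before the start and without overlap with the GC box that follows it.

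The authors deposited counts per gene, which sum to between 24939980 and 30773001 in the 3 libraries, and the fpkm made from them, which are divided by gene length and are used here for levels. All 12 cardiomyocyte markers examined were detected in each library, and their summed CPM (counts scaled to library size) was 46909 with vehicle, 48218 with IL-6 and 51651 with OSM. The 10 fibroblast markers summed to between 6.86 and 9.48 CPM, the 8 endothelial markers to between 37.8 and 40.2 CPM and the 8 markers of smooth muscle and pericytes to between 36.5 and 44.4 CPM. The 9 macrophage markers summed to 24.1, 24.8 and 55.0 CPM with vehicle, IL-6 and OSM, with Ptprc, C1qa and C1qb at 0 counts in every library. Csf1r had 187, 166 and 209 counts, Lyz2 13, 4 and 31, Cd14 8, 22 and 18, Mrc1 2, 14 and 8, and Adgre1 8, 0 and 6. Most of the macrophage sum was Cd68, a lysosomal protein also found outside macrophages, with 382, 448 and 1419 counts. In bulk RNA, fewer cells of a type and less RNA per cell cannot be told apart.

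**Figure D1:**
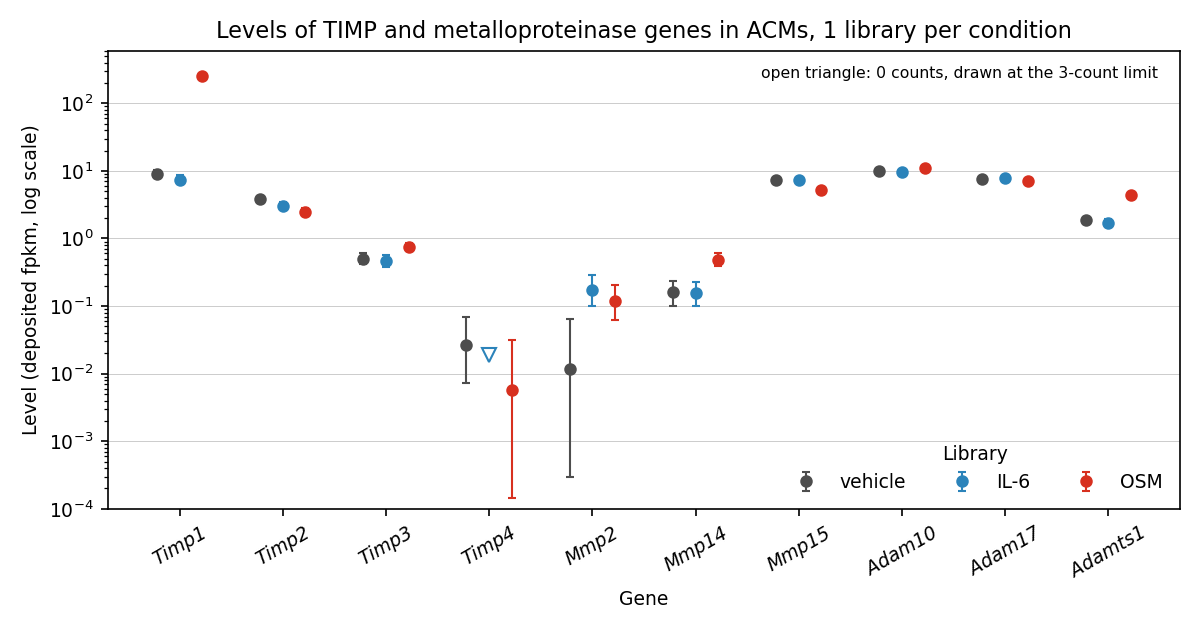
Level of each of the 10 genes (x axis) in deposited fpkm on a log scale (y axis) in the vehicle, IL-6 and OSM libraries, with bars for the 95% Poisson interval of the count. Timp1 goes from 9.04 fpkm with vehicle to 254 fpkm with OSM, while Adam10, Adam17 and Mmp15 stay between 5.15 and 11.0 fpkm in every library.

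Timp1 (ENSMUSG00000001131, chrX:20736405-20740974, plus strand, 6 exons) is the shortest gene of the set, at 888 bases of exon. It had 203 counts with vehicle, 178 with IL-6 and 6739 with OSM, which correspond to 9.04, 7.40 and 254 fpkm. By fpkm it ranked 3999th of all genes with vehicle, 4634th with IL-6 and 198th with OSM. The vehicle and IL-6 levels lay close together and the OSM level stood apart from both.

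The other inhibitors were lower in level and moved less. Timp2 (ENSMUSG00000017466, chr11:118191895-118246566, minus strand, 5 exons), which besides inhibiting MMPs takes part in activation of MMP2, had 384 counts with vehicle, 324 with IL-6 and 289 with OSM, or 3.90, 3.07 and 2.48 fpkm, with vehicle the highest. Timp3 (ENSMUSG00000020044, chr10:86136236-86185370, plus strand, 5 exons), which binds to the extracellular matrix, had 104, 103 and 182 counts in the same order, or 0.505, 0.467 and 0.748 fpkm, with OSM the highest. Timp4 (ENSMUSG00000030317, chr6:115218853-115229166, minus strand, 5 exons), a TIMP known from heart tissue, was barely seen in these cultures, with 4 counts with vehicle, 1 with OSM and 0 with IL-6, where a floor of 3 counts is 0.0188 fpkm and the 95% Poisson limit 0.0231 fpkm.

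Among the 3 matrix metalloproteinases of the set, Mmp15 (ENSMUSG00000031790, chr8:96078896-96101708, plus strand, 10 exons) was the only one above 1 in deposited fpkm. It had 1016 counts with vehicle, 1073 with IL-6 and 830 with OSM, or 7.44, 7.34 and 5.15 fpkm, with OSM the lowest. Mmp14 (ENSMUSG00000000957, chr14:54669069-54682821, plus strand, 10 exons) had 24, 25 and 87 counts, or 0.159, 0.155 and 0.489 fpkm, with OSM the highest. Its length in the authors' annotation is 5960 bases, against 2787 in its canonical transcript, so its level depends on the length used. Mmp2 (ENSMUSG00000031740, chr8:93553919-93580048, plus strand, 13 exons) had 1 count with vehicle, 16 with IL-6 and 12 with OSM, or 0.0117, 0.175 and 0.119 fpkm, so both cytokine libraries were above vehicle at very low levels.

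The sheddases were the most evenly expressed genes of the set. Adam10 (ENSMUSG00000054693, chr9:70586279-70687511, plus strand, 16 exons) had 1234 counts with vehicle, 1287 with IL-6 and 1613 with OSM, or 9.93, 9.67 and 11.0 fpkm. Adam17 (ENSMUSG00000052593, chr12:21373510-21423633, minus strand, 19 exons) had 1377, 1537 and 1517 counts, or 7.61, 7.93 and 7.10 fpkm, a narrow range. Adamts1 (ENSMUSG00000022893, chr16:85590715-85600001, minus strand, 9 exons) had 250, 242 and 693 counts, or 1.86, 1.68 and 4.38 fpkm, with OSM above both other libraries.

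Ordered by fpkm, Adam10 led with vehicle and with IL-6, and Timp1 led with OSM, where it was 21.9 to 24.4 times the level of Adam10, next in order (95% counting interval of the ratio). With vehicle, Adam10 and Timp1, Adam17 and Mmp15, and Timp4 and Mmp2 were neighbours whose levels did not differ beyond counting error. With IL-6 the same held for Adam17 and Timp1, Timp1 and Mmp15, and Mmp2 and Mmp14. With OSM all neighbours in the order differed beyond counting error. Adamts1 came after Timp2 with vehicle and IL-6 and before it with OSM. The order also rests on the gene lengths in the authors' annotation. For Adam17 that length was 7154 bases, against 4476 in its canonical transcript, and for Adam10 4913 against 4651. Whether Adam10 still leads Adam17 with other lengths was not tested.

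The 4 TIMPs summed to 13.5 fpkm with vehicle, 10.9 fpkm with IL-6 and 257 fpkm with OSM. The 6 proteases summed to 27.0, 26.9 and 28.2 fpkm, so the ratio of summed inhibitor to summed protease transcript was 0.498, 0.406 and 9.12. Timp1 made up 67.1% of the TIMP sum with vehicle, 67.7% with IL-6 and 98.7% with OSM. With Timp1 left out, the ratio was 0.164 with vehicle, 0.131 with IL-6 and 0.115 with OSM, so the higher ratio with OSM rested on Timp1. Adam10, Adam17 and Mmp15 together made up 92.5% of the protease sum with vehicle and with IL-6 and 82.3% with OSM. These are sums of transcript levels that rest on the same gene lengths, and neither protein amounts nor activities were measured.

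Differences were given as log2 ratios of counts scaled by TMM (edgeR's normalization for library composition), and each has a 95% Clopper-Pearson interval, computed from how the summed counts split between the libraries. Intervals and floors cover counting error only, because the reads carried no molecular identifiers and PCR copies are not separate molecules. A gene was compared where the pair of libraries held at least 10 counts, which left 9 of the 10 genes, all but Timp4, and was called higher or lower when its whole interval lay beyond 2-fold. OSM against vehicle and IL-6 against vehicle share the vehicle library, and OSM against IL-6 shares a library with each.

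**Figure D2:**
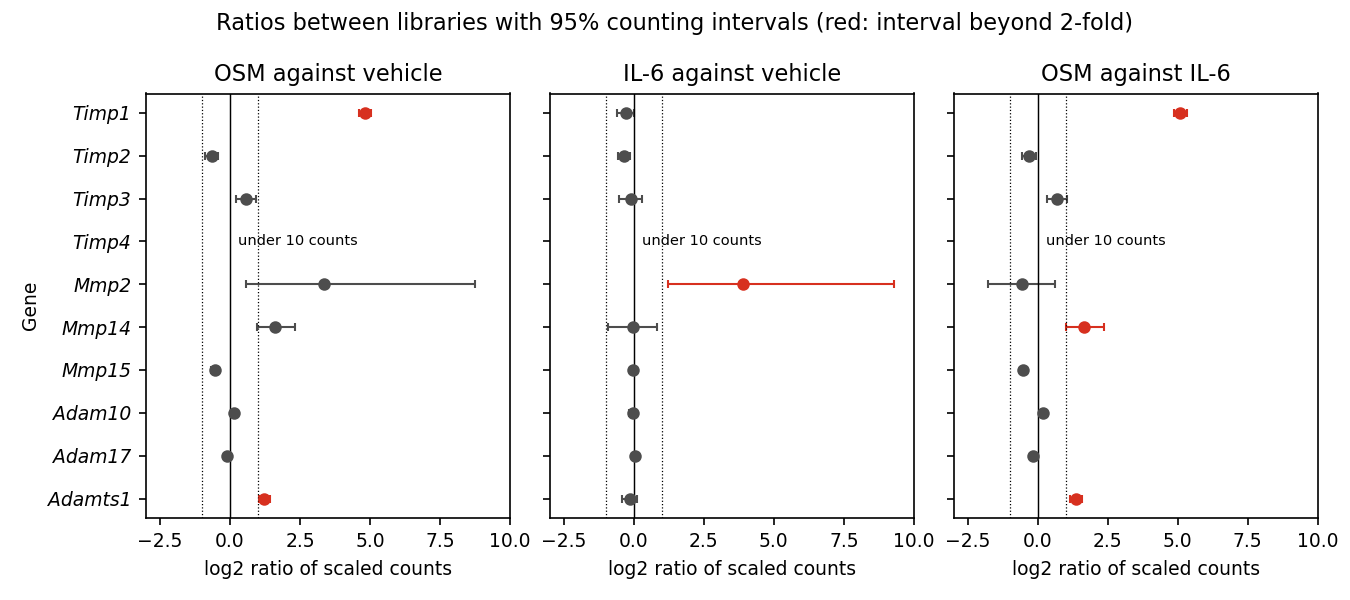
The log2 ratio of scaled counts (x axis) for each gene (y axis) in the 3 pairs of libraries, with bars for the 95% counting interval, dotted lines at 2-fold and red for genes called. Timp1 and Adamts1 are called with OSM against both other libraries, Mmp14 with OSM against IL-6 only, and Mmp2 with IL-6 against vehicle with a bar that spans from 1.21 to 9.29.

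With OSM against vehicle, 2 of the 9 compared genes were higher and 0 were lower, where 3.74% of the 15537 compared genes were called higher and 5.43% lower. Timp1 was 28.1 times higher with OSM (24.4 to 32.4, log2 ratio 4.81), the 15th highest ratio of all genes compared. Adamts1 was 2.34 times higher (2.03 to 2.72, log2 1.23). The lower bound for Adamts1 was just beyond 2-fold, and its call was lost with a 99% interval or with scaling by total counts.

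Mmp14 lay just outside the rule, with a log2 ratio of 1.62 (0.95 to 2.33). Mmp2 had a log2 ratio of 3.34 (0.59 to 8.76), an interval set by its 1 count with vehicle. Timp3 had 0.57 (0.21 to 0.93) and Adam10 0.14 (0.04 to 0.25). On the other side of no change, Timp2 had -0.65 (-0.88 to -0.43) and Mmp15 -0.53 (-0.67 to -0.40), so an inhibitor and a membrane-bound protease were both lower beyond counting error. Adam17, at -0.10 (-0.21 to 0.00), was within it, and its ratio turned to 0.10 when the trend on gene length described below was removed.

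By the looser criterion of an interval that excludes no change, 6 genes were higher and 2 lower with OSM than with vehicle. That criterion was met by 33.4% of all compared genes on the higher side and by 33.1% on the lower side, so most genes in the libraries differ beyond counting error. The median log2 ratio of the 9 genes was 0.57, and that of all compared genes was 0.00.

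With IL-6 against vehicle, 1 of the 9 genes was higher beyond 2-fold and 0 were lower, where 1.77% of the compared genes were called higher and 1.74% lower. The gene was Mmp2, with 16 counts against 1 and a log2 ratio of 3.90 (1.21 to 9.29). It was no longer called with a 99% interval. Among genes with 10 to 49 counts over this pair, as Mmp2 had, 14.2% were called in either direction, against 0.465% of genes with 50 counts or more, so calls in this pair were mostly at low counts.

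Timp1 had a log2 ratio of -0.29 with IL-6 (-0.59 to 0.01), Adamts1 -0.15 (-0.41 to 0.11) and Mmp14 -0.04 (-0.91 to 0.83). The IL-6 intervals for Timp1 and Adamts1 leave out the increases seen with OSM. Timp2 was the gene lower beyond counting error, at -0.34 (-0.56 to -0.13). The sheddases and Mmp15 had ratios between -0.04 and 0.06. By the looser criterion 1 gene was higher, 1 was lower and 7 were within counting error, where 19.6% of all compared genes were higher and 19.1% lower.

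With OSM against IL-6, at equal dose and time, 3 of the 9 genes were higher and 0 were lower, where 4.24% of the compared genes were called higher and 5.42% lower. Timp1 was 34.3 times higher with OSM (29.6 to 40.1, log2 5.10) and Adamts1 2.60 times (2.24 to 3.02, log2 1.38). Mmp14 was 3.15 times higher (2.00 to 5.14, log2 1.66), a call at the edge of the rule that was lost with a 99% interval or with scaling by total counts. Mmp2 did not differ beyond counting error between the cytokine libraries, at -0.56 (-1.77 to 0.62).

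Timp3 had a log2 ratio of 0.68 (0.32 to 1.04) with OSM against IL-6, while Timp2 had -0.31 (-0.54 to -0.07) and Mmp15 -0.51 (-0.64 to -0.38). Adam10 had 0.18 (0.08 to 0.29) and Adam17 -0.16 (-0.26 to -0.06), and removal of the length trend turned the latter to 0.05. By the looser criterion 5 genes were higher, 3 lower and 1 within counting error, where 33.2% of all compared genes were higher and 33.2% lower.

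The ratios with OSM fell with gene length across genes. Over 9445 protein-coding genes that averaged 100 counts or more, Spearman's rho between log2 ratio and gene length was -0.52 for OSM against vehicle and -0.07 for IL-6 against vehicle, which describes genes within these libraries and is no test, as genes do not vary independently. The short Timp1 lies where ratios were high, and the 500 genes nearest to it in length had a median of 0.52, all of them below Timp1. The longer Adamts1 and Mmp14 lie where ratios were slightly negative, with medians of -0.11 and -0.12 among the genes of like length, of which 95.2% and 97.6% lay below them. Timp3, at 8144 bases the longest of the set, was above 92.6% of genes of its length, which had a median of -0.30. Timp2 was above 13.2% of the genes of its length and Mmp15 above 20.4%, with medians of 0.09 and -0.07.

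With the trend removed, the log2 ratio of Timp1 for OSM against vehicle was 4.27 and that of Adamts1 1.30, both still called, and Mmp14, at 1.73, was called as well. What part the length trend has in these ratios was not tested.

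**Figure D3:**
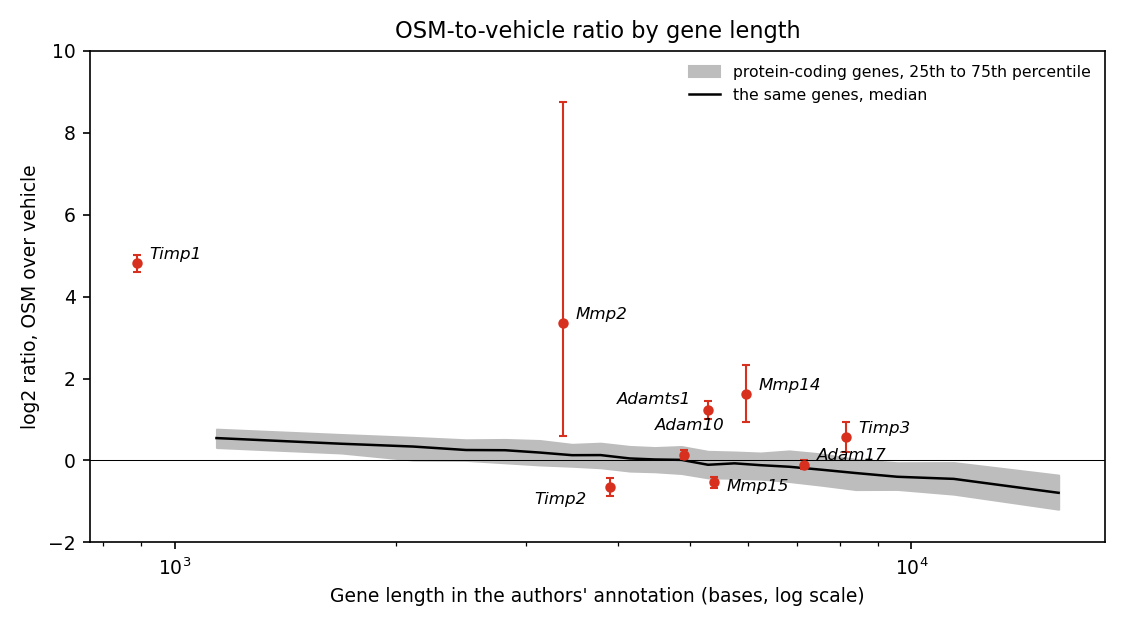
The log2 ratio of OSM over vehicle (y axis) by gene length in the authors' annotation (x axis, log scale) for the 9 compared genes with 95% counting intervals, over the median (line) and the middle 50% (band) of protein-coding genes that held 100 counts or more in these libraries. The line falls with length, and the points of Timp1, Mmp2, Mmp14, Adamts1 and Timp3 lie above the band while those of Timp2 and Mmp15 lie below the band.

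Each gene was set beside what it shares its locus with, since the sources do not say whether counting used the strand. Timp1 lies inside the synapsin gene Syn1 on the opposite strand, without shared exon bases, and Syn1 had 4, 2 and 4 counts with vehicle, IL-6 and OSM. The nesting recurs for Timp3 in Syn3 and for Timp4 in Syn2, here with 1734 and 1142 shared exon bases. Syn3 had 7, 7 and 9 counts, few beside those of Timp3, whereas Syn2 had 26, 38 and 14, more than Timp4, whose counts are therefore uncertain. Adam17 shares 341 exon bases with Iah1 on the opposite strand (163, 180 and 284 counts), and Mmp2 shares 860 with Gm45472, which had 0 counts in every library. No other gene matched the canonical transcript of Timp1, Timp2, Mmp15, Adam10 or Adamts1 over 100 bases at 97% identity.

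Mmp2 is a gene known from fibroblasts, and fibroblast markers were read beside it. Their sum was 6.86, 9.48 and 7.28 CPM with vehicle, IL-6 and OSM, with 0, 1 and 3 of the 10 at 0 counts. The collagen gene Col1a1 had 6, 0 and 0 counts and the fibroblast transcription factor Tcf21 had 2, 2 and 0. Col1a2 had 14, 41 and 6 counts and the collagen receptor Ddr2 28, 90 and 20, both highest with IL-6, as Mmp2 was. Col3a1, with 15, 21 and 14, and Dpt, with 2, 16 and 8, were also highest with IL-6. Pdgfra had 40, 18 and 34 counts, Dcn 49, 48 and 131, Lum 11, 10 and 11 and Postn 4, 4 and 0, none higher with IL-6 than with vehicle. The part of fibroblast content in the Mmp2 result was not tested. With OSM the fibroblast sum was close to that with vehicle and below that with IL-6, but its markers went different ways. Dcn was highest with OSM, while Col1a1, Tcf21 and Postn were at 0 there. The macrophage sum and the smooth muscle and pericyte sum given above were highest with OSM, and the endothelial sum was highest with IL-6. What part any of these cell types has in the Timp1 and Adamts1 ratios was not tested.

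Xist, expressed from the inactive X chromosome of female cells, had 753 counts with vehicle, 725 with IL-6 and 279 with OSM and was lower with OSM beyond 2-fold. Of the Y-linked genes, Ddx3y had 1758, 1930 and 1450 counts, Uty 470, 608 and 309, and Kdm5d 302, 349 and 221, all lowest with OSM, whereas Eif2s3y had 1015, 1147 and 1366 and was highest with OSM. These genes were added after their values had been seen, and whether the sex makeup of the pools bears on the X-linked Timp1 was not tested. What part the fall of OSM ratios with gene length has in the values of Xist and the Y-linked genes was also not tested.

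The rest of each family was read for comparison. All 4 TIMP genes were detected. Of 23 MMP genes in the table, 11 were at 0 counts in every library, as were 18 of 34 ADAM genes and 4 of 24 ADAMTS and ADAMTSL genes. For OSM against vehicle, 9 MMP, 12 ADAM and 15 ADAMTS and ADAMTSL genes could be compared, the 10-gene set included, and 0, 0 and 3 of them were higher beyond 2-fold, with 0 lower, beside 3.74% higher and 5.43% lower over all genes. For families of this size, 0 calls is near that background. The median log2 ratio was -0.79 for MMPs, 0.26 for ADAMs and -0.10 for the ADAMTS family.

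Both further ADAMTS genes higher with OSM are proteoglycan-cleaving enzymes like ADAMTS1. Adamts4 had 6 counts with vehicle, 10 with IL-6 and 193 with OSM (log2 4.77, 3.62 to 6.23, against vehicle). Adamts9 had 64, 64 and 224 counts (log2 1.57, 1.16 to 1.99). Adamts1 thus had a smaller ratio than either but the highest count of the 3 in every library. Among the ADAMs with counts in both libraries, Adam19 came nearest to a call, with 735, 797 and 1736 counts and a log2 ratio of 1.00 (0.87 to 1.12).

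**Figure D4:**
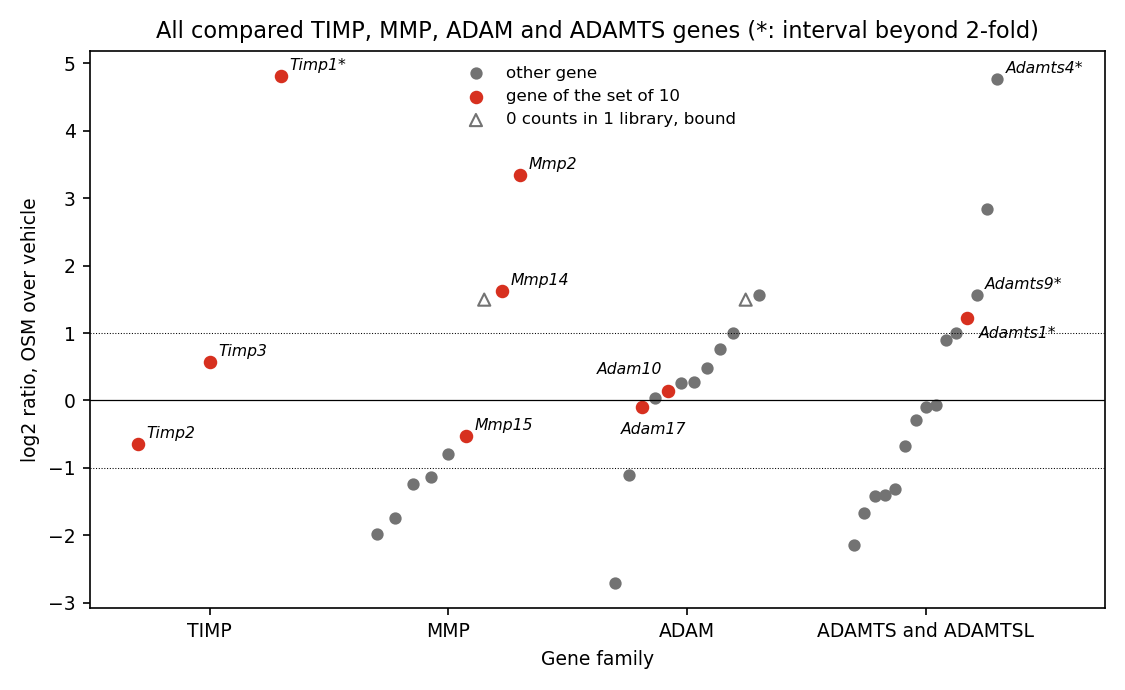
The log2 ratio of OSM over vehicle (y axis) for every compared gene of the 4 families (x axis, genes sorted by ratio within each), with the 10-gene set in red, asterisks for genes called and triangles for ratios against a floor of 3 counts. Only Timp1 among TIMPs and Adamts1, Adamts4 and Adamts9 in the ADAMTS family are called, and none of the 9 MMP or 12 ADAM genes is.

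Genes that act with the set or are cut by it were read from lists. Of 15 compared activators and inhibitors of metalloproteinases, 1 was higher with OSM than with vehicle and 0 were lower (median log2 -0.14). The shares over all genes were 3.74% higher and 5.43% lower. The higher gene was Cd63, a tetraspanin that binds TIMP1 at the cell surface, with 4025 counts with vehicle, 4231 with IL-6 and 16652 with OSM (log2 1.81, 1.76 to 1.86). Plau, the urokinase gene, had 32 counts with vehicle and 42 with OSM but 0 with IL-6. It was the 1 gene of the list called with IL-6 against vehicle, beside 1.77% higher and 1.74% lower over all genes. With its IL-6 count set at the floor of 3 it was 11.4-fold lower, and its counting interval reaches up to a log2 ratio of -3.13.

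The 9 compared partners of ADAM10 and ADAM17, tetraspanins and iRhoms that carry the sheddases to the surface and proteins that stabilize or sort them, had 0 calls in any pair, with a median log2 of 0.06 for OSM against vehicle. For a list of this size, 0 calls is near the background of 3.74% higher and 5.43% lower. Of 23 compared substrates that these sheddases release, 3 were higher with OSM than with vehicle and 2 were lower (median -0.42). Hbegf, which encodes a growth factor freed from the membrane by ADAM17, had 889, 966 and 4244 counts with vehicle, IL-6 and OSM (log2 2.01, 1.91 to 2.12).

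Cd44, a hyaluronan receptor, had 632, 549 and 3968 counts (log2 2.41, 2.29 to 2.53). Sdc4, a heparan sulfate proteoglycan of the cell surface, had 440, 416 and 1956 (log2 1.91, 1.76 to 2.06). The lower substrates were receptor tyrosine kinases, the neuregulin receptor Erbb4 with 177, 129 and 42 counts (log2 -2.32, -2.84 to -1.82) and the hepatocyte growth factor receptor Met with 151, 107 and 66 (log2 -1.44, -1.88 to -1.01). The call of Met was lost with the length trend removed, with upper-quartile factors and with a 99% interval, which left 1 lower substrate, Erbb4. With IL-6 against vehicle, 0 of 21 compared substrates were higher and 1 was lower, beside 1.77% and 1.74% over all genes. The lower one was the TNF receptor Tnfrsf1b with 60 counts against 18, a call lost with a 99% interval. Against IL-6, 5 of 23 substrates were higher with OSM and 1 was lower, beside 4.24% and 5.42% over all genes. The 5 higher became 3 with total counts and 4 with a 99% interval or with the length trend removed. The 1 lower became 0 with the length trend removed.

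Of 19 compared matrix substrates, 1 was higher with OSM than with vehicle and 5 were lower (median -0.15), beside 3.74% higher and 5.43% lower over all genes. With the length trend removed 1 of the 5, Col6a1, was still lower, 2 were with at least 50 counts and 3 with a 99% interval. The lower ones with most counts were Hspg2, which encodes the basement membrane proteoglycan perlecan, with 2585, 2984 and 1273 counts (log2 -1.26, -1.36 to -1.17), and the laminin gene Lama2, with 795, 761 and 386 counts (log2 -1.28, -1.46 to -1.11), both long genes at 14739 and 16605 bases. Vcan, which encodes versican, a substrate of ADAMTS1, had 10, 24 and 0 counts. With its OSM count set at the floor it was 3.94-fold lower than with vehicle, and its counting interval reaches up to a log2 ratio of -1.41. Col6a1, with 18, 17 and 0 counts, and Nid2, with 23, 33 and 5, were the others. The higher one was the elastin gene Eln, with 0, 0 and 12 counts, a call lost with a 99% interval. With IL-6 against vehicle, 0 of 20 were called, beside 1.77% higher and 1.74% lower over all genes. With OSM against IL-6, 1 of 19 was higher and 6 were lower, beside 4.24% and 5.42% over all genes. The 6 lower became 4 with the length trend removed and 2 with at least 50 counts, and the 1 higher became 2 and 0.

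Among 10697 protein-coding genes with at least 100 counts over the 3 libraries, the genes whose log2 ratios with OSM and with IL-6 against vehicle came nearest to those of Timp1 were Socs3, Sprr1a, Spred3, Kbtbd11 and Sec1, at distances from 0.321 to 0.623. Socs3, a feedback inhibitor of JAK-STAT signaling, had 670 counts with vehicle, 646 with IL-6 and 18194 with OSM. Nearest to Adamts1 were Dcn, St6galnac4, Frmd4b, Arrdc4 and St3gal1, at distances from 0.0550 to 0.0637, with Dcn, which encodes the matrix proteoglycan decorin, at 49, 48 and 131 counts. Dcn is also 1 of the fibroblast markers. The likeness rests on 3 libraries, and the nearest genes lay farther from Timp1 than from Adamts1.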

How the data were processed

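Poly-A RNA of cultured ACMs was sequenced as paired 150-base reads, 1 library per condition. The authors deposited raw counts per gene and the FPKM values derived from them; per the labels' processing notes they used fastp, HISAT2 2.2.1, featureCounts 2.0.6 and edgeR 4.0.16 with mm39, and the strand setting of counting is not given in the sources used here. Groups were taken from the sample labels, and no sample column was left unmatched (0 columns).

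Counts were scaled with TMM for each pair of libraries (edgeR 4.0.16, R 4.3.3). Intervals were computed with scipy 1.17.1 and tested on simulated counts. The simulation had Poisson error alone, without spread between cultures or PCR copies, so it checks the computation only. With 1 library per condition no P-value is given. Levels are deposited FPKM with 95% Poisson intervals, and a 0 was set at a floor of 3 counts (0.0975 to 0.120 CPM). The trend on gene length was a lowess fit (statsmodels 0.14.6, fraction 0.3). Annotation was GENCODE M39 on GRCm39, and copies were sought with blastn 2.17.0.

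The genes and lists were chosen with earlier results of these data known. Named genes were the 10, up to 5 called genes with the largest ratio per list and pair, genes overlapping the 10, and the 5 genes nearest to each called gene by Euclidean distance over both log2 ratios against vehicle. Some genes under this rule are not reported here. Further family members, cell markers, Xist and Y-linked genes were named after their values were seen. Alternatives were DESeq2 1.42.0 size factors, total counts, upper-quartile factors, other count minimums, folds and intervals, deposited FPKM without an interval, and removal of the length trend.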

Additional observations from a re-analysis of the deposited data

How the results depend on the processing

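Timp1 was called with OSM against either library under every alternative run, with a log2 ratio to vehicle between 4.27 and 4.84. The number of the 10 genes higher with OSM than with vehicle, 2 as reported, was 1 with total counts, with a 99% interval or at 4-fold. It was 3 with the trend on gene length removed, which adds Mmp14. It was 4 with the point estimate alone, at 1.5-fold or with deposited FPKM, which add Mmp14 and Mmp2. The FPKM setting also uses no interval, and its counts are close to those of the point estimate. With IL-6 against vehicle the 1 gene became 0 with at least 50 counts over the pair, with a 99% interval or at 4-fold. With OSM against IL-6 the 3 genes became 2 with total counts or with a 99% interval, which leave out Mmp14, and 1 at 4-fold. In all 3 pairs 0 genes were lower as reported. Over the recomputed log2 ratios of the 9 genes, 289 of 293 stayed within the counting interval and 4 moved outside it, those of Timp1 and Adam17 with OSM when the trend on gene length was removed.

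Over all genes with OSM against vehicle, the 581 higher and 844 lower became 382 and 502 with at least 50 counts, 1565 and 2034 with the point estimate, 1357 and 1850 at 1.5-fold, 127 and 129 at 4-fold, and 1573 and 2031 with deposited FPKM. With IL-6 against vehicle, the 274 and 269 became 31 and 25, 1033 and 1025, 457 and 445, 34 and 62, and 1040 and 1023 in the same order, and 103 and 134 with a 99% interval. With OSM against IL-6, the 659 and 843 became 386 and 479, 1557 and 1981, 1365 and 1854, 151 and 124, and 1557 and 1979, and with a 99% interval 437 and 581.

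No paired analysis was possible because each condition has 1 library, and for the same reason no library was left out. Counting intervals do not include the spread between cultures, and at the low counts of Timp4, Mmp2 and Mmp14 depth limits the comparison.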
